A study of Mus musculus with 6 samples.

Results

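Matrix metalloproteinases (Mmp), the secreted ADAMTS metalloproteinases (Adamts) and the tissue inhibitors of metalloproteinases (Timp) were followed in mouse Achilles tendon before and after tenotomy. The 46 genes were taken by symbol, as every Mmp, Adamts or Timp gene with a number, from the 33696 genes of the count tables, and comprised 23 Mmp, 19 Adamts and 4 Timp genes. Of these, 32 reached 10 CPM (UMIs, the unique molecules counted, per 1000000 UMIs) in at least 1 of the 6 libraries, namely 13 Mmp, 15 Adamts and all 4 Timp genes. Just above that level were Adamts17 at 10.4 CPM, Mmp8 at 10.7 CPM and Adamts19 at 10.8 CPM in their highest library, and just below it were Mmp28 at 6.24 CPM, Adamts8 at 5.83 CPM and Mmp15 at 5.06 CPM.

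All animals were Gli1-CreERT2; Ai9 mice given tamoxifen, in which cells that expressed the hedgehog transcription factor Gli1 during the treatment, and their progeny, carry the tdTomato reporter. The Achilles tendon was clamped and cut to induce heterotopic ossification, and tendon cells were sorted into Gli1-positive and Gli1-negative fractions from uninjured mice and at 7 and 21 days post-injury (dpi). The 24 mice were 8 per time point, and each of the 6 conditions is 1 library of pooled animals in which cells cannot be traced to a mouse. There was therefore no replicate and no test between conditions: intervals are 95% exact intervals that cover counting error only, and a difference between libraries includes any difference between the pools. The mice's age is not given in the sources used here.

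Of the deposited barcodes, 7057 to 10882 cells per library were kept, with 53564928 to 107887022 UMIs per library and a median of 4297 to 9775 UMIs per cell. The libraries differed in more than time and sort. Although the labels give an equal number of both sexes, Xist without Y-linked transcripts was found in 92.7% and 90.5% of the Gli1-positive and Gli1-negative cells at 21 dpi and in at most 0.0108% of cells at 7 dpi, where 70.9% and 70.5% carried Y-linked transcripts without Xist. The uninjured Gli1-negative library was also Y-linked (59.6%), and the uninjured Gli1-positive library was mixed (68.7% Xist only, 15% Y-linked only). Sex and time cannot be told apart between 7 and 21 dpi, nor in the Gli1-negative sort between uninjured and 21 dpi. Lymphoid-like cells (3012) and myeloid-like cells (460) were present in the uninjured Gli1-positive library and formed no cluster in the other 5. Gli1 itself measured 6.55, 2.17 and 4.1 CPM over the Gli1-positive libraries (uninjured, 7 dpi, 21 dpi) and 7.64, 2.57 and 4.03 CPM over the Gli1-negative ones, and in mesenchymal cells 13.4, 2.16 and 4.2 CPM against 8.98, 2.62 and 4.61 CPM, so that among mesenchymal cells it was higher in the Gli1-positive sort when uninjured and not higher there at 7 and 21 dpi. As the labels read, both sorts of a time point come from the same 8 animals, so that a like result in both sorts is not independent support, although the share of cells with Xist but no Y-linked transcript was 68.7% in one uninjured sort and 0% in the other, so whether both libraries hold the same animals is uncertain. Epidermal markers summed to 2244 CPM in the Gli1-positive mesenchymal cells at 7 dpi and to 13.9 to 198 CPM in the other 5 libraries, and their part in the results was not tested. Any 2 libraries shared 15 to 32 cell barcodes, at most 0.354% of the smaller library.

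To compare like cells, UMIs were summed over mesenchymal cells, that is, the clusters whose best marker list was that of a mesenchymal type (tenocyte-like, tendon stem-like and Col2a1-led clusters among them), whatever their Pdgfra level, and clusters with no marker list, or the adipocyte list, in the lead and Pdgfra at 100 CPM or more. Pdgfra stood at 38.9 to 76.9 CPM in 5 of the clusters taken by their markers, the Gli1-negative tenocyte-like cluster and 2 of the Gli1-positive ones included. The cluster called Col2a1-led in the Gli1-positive sort was mixed, with the bone markers Bglap and Ibsp also among its leading genes. Bglap stood there at 5345 CPM, against 67.1 CPM in the Gli1-negative Col2a1-led cluster. Mesenchymal cells numbered 2464, 7003 and 8091 in the Gli1-positive libraries and 5770, 7995 and 7504 in the Gli1-negative libraries. Different clusters held most of these cells at each time. In the Gli1-positive sort the first in number were an Inmt/C7-led cluster of 995 cells uninjured, a cluster of 3967 cells with Crabp1 and Kif26b among its leading genes at 7 dpi and a tenocyte-like Wfdc1-led cluster of 3804 cells at 21 dpi. In the Gli1-negative sort they were a Grm8-led cluster of 2957 cells, a Crabp1-led cluster of 3005 cells and a Cfd-led cluster of 4175 cells. A list of dissociation-response genes summed to 22925 and 26738 CPM in the uninjured mesenchymal cells and to 10394 to 14110 CPM after injury, and its part in the results was not tested.

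As background, Mmp enzymes are zinc-dependent proteases that are mostly secreted as inactive zymogens and cut collagens, proteoglycans and other matrix proteins, and the membrane-type members act at the cell surface. Adamts enzymes include the aggrecan- and versican-cleaving proteoglycanases and the procollagen N-proteinases, which trim procollagen so that fibrils can form. Timp proteins bind the catalytic site of these enzymes, and Timp3, which is held in the matrix, inhibits several Adamts enzymes as well. In tendon they govern the turnover of a collagen I matrix, and in the growth plate Mmp13 cuts the collagen II of cartilage that is replaced by bone.

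In the RefSeq annotation of GRCm38.p6, 10 members lie next to each other on chromosome 9 with no other protein-coding gene between them, in the order Mmp13, Mmp12, Mmp1b, Mmp3, Mmp1a, Mmp10, Mmp8, Mmp27, Mmp20, Mmp7. Mmp13, Mmp3, Mmp10 and Mmp12, the members of this run with the widest range across time points in mesenchymal cells, are shown by the 120 bases before a RefSeq transcription start, read 5′ to 3′ on the gene's strand, with the AP-1 letters TGAGTCA, or their complement TGACTCA, in capitals. AP-1 is the Fos and Jun family of transcription factors.
Mmp13, chr9:7272394-7272513, plus strand: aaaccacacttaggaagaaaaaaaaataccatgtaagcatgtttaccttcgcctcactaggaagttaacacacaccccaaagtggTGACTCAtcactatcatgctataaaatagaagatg
Mmp3, chr9:7445702-7445821, plus strand: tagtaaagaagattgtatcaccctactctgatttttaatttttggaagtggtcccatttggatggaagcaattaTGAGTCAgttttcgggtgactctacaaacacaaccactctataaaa
Mmp10, chr9:7502222-7502341, plus strand: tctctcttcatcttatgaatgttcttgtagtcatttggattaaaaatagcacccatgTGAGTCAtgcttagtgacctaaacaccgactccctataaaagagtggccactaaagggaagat
Mmp12, second of its starts, chr9:7347254-7347373, plus strand: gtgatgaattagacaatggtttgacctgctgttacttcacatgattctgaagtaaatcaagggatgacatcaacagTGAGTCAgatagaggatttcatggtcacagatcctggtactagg
The AP-1 letters begin 35, 46, 63 and 44 bases before the start in Mmp13, Mmp3, Mmp10 and Mmp12. Searched on both strands over the 250 bases before each start, they were found for 7 of the 32 members with a window in the table, and all 7 (Mmp1a, Mmp1b, Mmp3, Mmp7, Mmp10, Mmp12, Mmp13) belong to the chromosome 9 run. Of all 32851 windows, 4.46% held them. Mmp12 has a further window, before its first start (chr9:7344277-7344396), which does not hold them. The RUNX letters AACCACA, also searched on both strands, were found for Mmp7, Mmp13 and Mmp27 against 4.4% of all windows. A match says only that these letters stand in the window, and 3 genes that carry the AP-1 letters, Mmp1a, Mmp1b and Mmp7, stayed at or under 0.509 CPM in all 6 libraries.

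The Mmp family as a whole stood higher at each later time point, while the sums of the Adamts and Timp families differed less. In mesenchymal cells the 23 Mmp genes summed to 817 CPM uninjured, 1724 CPM at 7 dpi and 4648 CPM at 21 dpi in the Gli1-positive sort, and to 678, 1709 and 5359 CPM in the Gli1-negative sort. The 19 Adamts genes summed to 1222, 1249.7 and 1069 CPM and to 1376, 1332 and 1113 CPM. The 4 Timp genes summed to 2241, 2306 and 3006 CPM and to 2108, 2459 and 3017 CPM. The ratio of Mmp to Timp transcripts thus went from 0.365 to 0.747 to 1.55 in Gli1-positive and from 0.321 to 0.695 to 1.78 in Gli1-negative mesenchymal cells. Without a cluster of Saa3-expressing cells the Mmp sum at 21 dpi was 2836 and 3284 CPM and the ratio 1.03 and 1.19. Each UMI is a molecule counted once at its 3′ end, so these sums are not weighted by transcript length, and they count transcripts and not active enzyme. Mmp3 and Mmp13 alone made up 2558 CPM of the Gli1-positive and 3291 CPM of the Gli1-negative Mmp sum at 21 dpi.

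**Figure D1:**
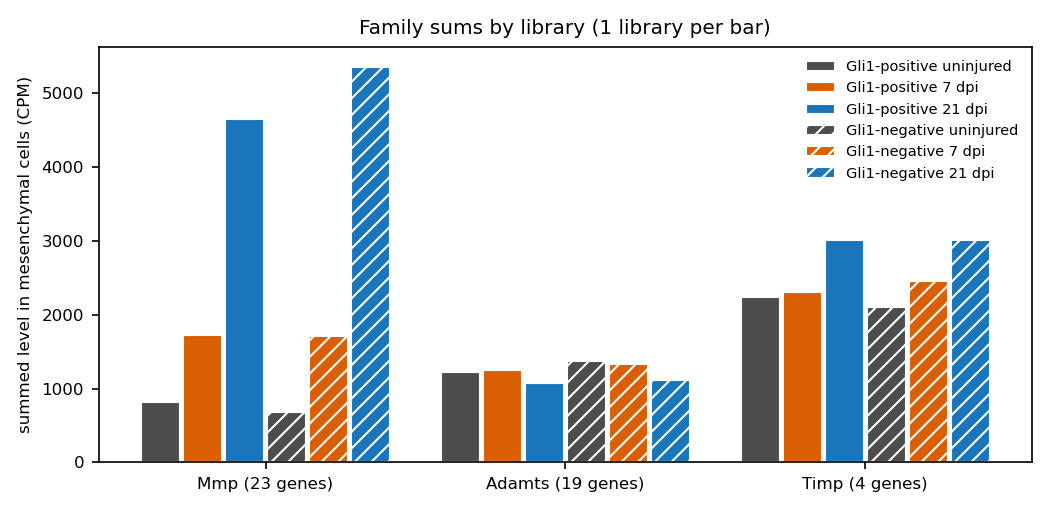
Summed CPM of the Mmp, Adamts and Timp genes in mesenchymal cells of each of the 6 libraries (1 library per condition). The Mmp sum was highest at 21 dpi in both sorts (4648 and 5359 CPM), while the Adamts sum stayed between 1069 and 1376 CPM.

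Counted gene by gene, 14 of the 25 members at 10 CPM or more in either library were past 2-fold between 7 dpi and uninjured Gli1-positive mesenchymal cells, 9 higher and 5 lower, against 27% of the 9710 genes tested alike (10.7% higher, 16.3% lower). In Gli1-negative cells it was 11 of 25, 9 higher and 2 lower, against 23.1% of genes (10.8% higher, 12.4% lower). At 21 dpi over uninjured the counts were 13 of 25, 10 higher and 3 lower, in Gli1-positive cells (background 18.6%, with 5.7% higher and 12.9% lower) and 16 of 27, 13 higher and 3 lower, in Gli1-negative cells (background 21.3%, with 8.99% higher and 12.3% lower). The members' median log2 ratio was 0.45 and 0.77 at 7 dpi and 0.65 and 0.77 at 21 dpi in the Gli1-positive and Gli1-negative sorts, beside −0.15, −0.06, −0.25 and −0.11 over all genes tested. From 7 to 21 dpi fewer members were past 2-fold, 4 of 26 in Gli1-positive cells (3 higher and 1 lower, background 7.47%, with 3.17% higher and 4.3% lower) and 4 of 27 in Gli1-negative cells (4 higher, background 5.74%, with 2.83% higher and 2.92% lower). The comparisons with uninjured cells share the uninjured library. The members past 2-fold in the same direction in both sorts were Adamts15, Adamts16, Mmp3, Mmp13, Mmp14, Mmp23 and Timp1 (higher) and Timp3 (lower) at 7 dpi, and Adamts7, Adamts15, Mmp2, Mmp3, Mmp10, Mmp13, Mmp14, Mmp19, Mmp23 and Timp1 (higher) and Timp3 (lower) at 21 dpi. Without a cluster of Saa3-expressing cells at 21 dpi, Adamts7 and Mmp10 no longer reached 10 CPM in either sort and Mmp19 was short of 2-fold in Gli1-negative cells, and the members past 2-fold at 21 dpi over uninjured were 8 higher and 4 lower in Gli1-positive cells (16.2% of all genes) and 10 higher and 3 lower in Gli1-negative cells (20% of all genes). Scaling by trimmed mean of M values (TMM) would add 0.30, 0.46 and 0.16 to the log2 ratios of 7 dpi over uninjured, 21 dpi over uninjured and 21 over 7 dpi in Gli1-positive cells, and 0.10, 0.18 and 0.08 in Gli1-negative cells.

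**Figure D2:**
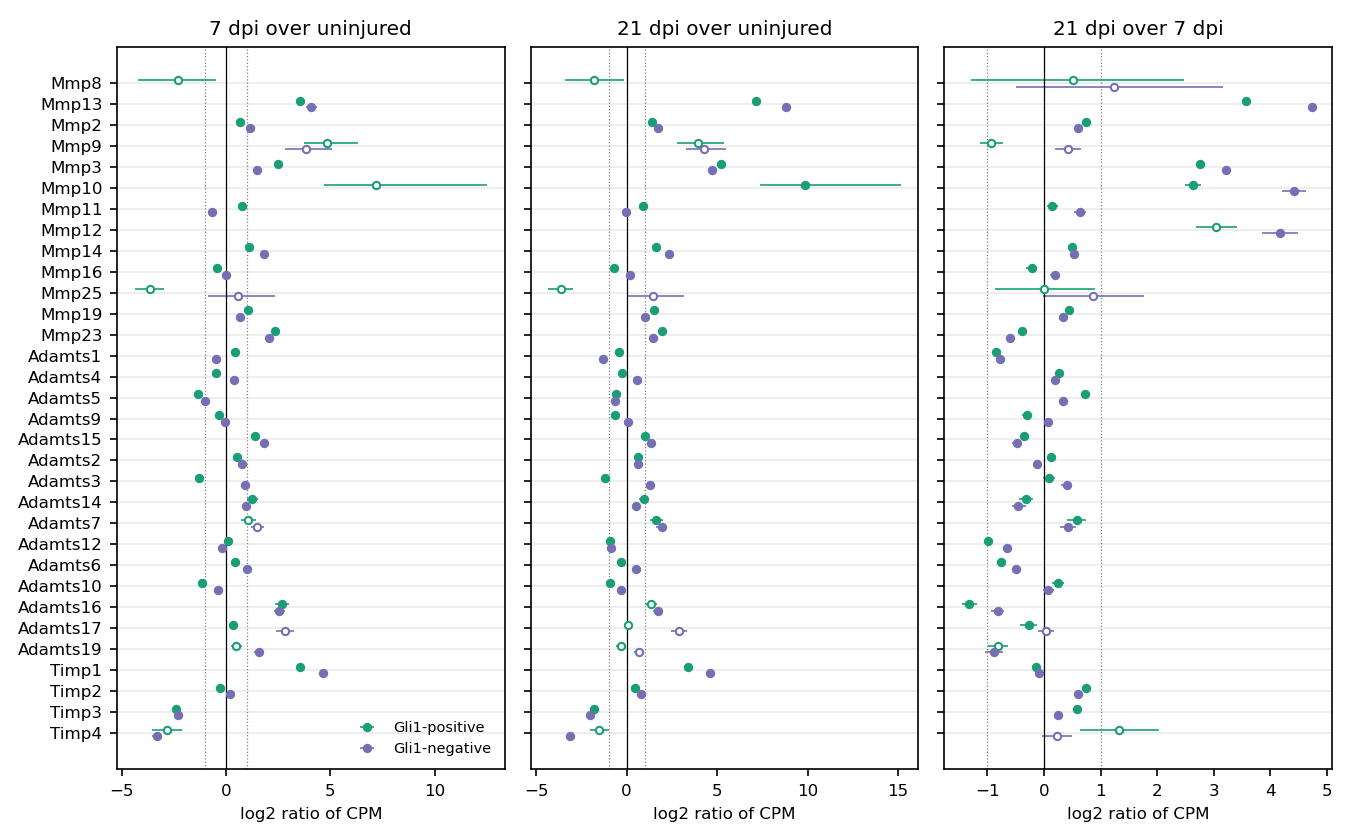
Log2 ratio of each named member between time points in mesenchymal cells of each sort, with 95% intervals for counting error. Dotted lines mark 2-fold either way, open circles are genes under 10 CPM in both groups, and genes with no UMI in one group are not drawn. Mmp13, Mmp3 and Timp1 lie past 2-fold to the right in both sorts at 7 and 21 dpi and Timp3 past it to the left.

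Among the collagenases, which cut fibrillar collagen, Mmp13 had the widest range. Its level in Gli1-positive mesenchymal cells was 8.26 CPM uninjured, 95.9 CPM at 7 dpi and 1147 CPM at 21 dpi, and in Gli1-negative cells 3.33, 56.1 and 1499 CPM. Both sorts thus had the same order of time points. At 7 dpi it was 11.6-fold and 16.9-fold over uninjured (log2 ratio 3.54, interval 3.33 to 3.75, and 4.08, interval 3.82 to 4.35). At 21 dpi it was 139-fold and 451-fold over uninjured (log2 7.12, interval 6.92 to 7.33, and 8.82, interval 8.56 to 9.08). Without the Saa3-led cluster Mmp13 at 21 dpi was at 309 and 565 CPM, with log2 ratios over uninjured of 5.23 and 7.41. The neutrophil collagenase Mmp8 was at 10.7 CPM in the uninjured Gli1-positive library, where a few neutrophil-like cells were present, and at 0.0661 to 0.244 CPM in the others. Mmp1a and Mmp1b, the rodent counterparts of interstitial collagenase, were nearly absent, with Mmp1a at 0.0509 CPM in its highest library.

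Of the stromelysins, which cut proteoglycans and fibronectin and can process other zymogens, Mmp3 and Mmp10 followed the same order, which for Mmp10 in Gli1-positive cells turned between 7 and 21 dpi when a cluster of Saa3-expressing cells was left out (4.87 and 0.818 CPM). Mmp3 was at 37.3, 209 and 1410.3 CPM in Gli1-positive and at 68.5, 192 and 1792 CPM in Gli1-negative mesenchymal cells (uninjured, 7 and 21 dpi). This was 5.61-fold and 2.81-fold over uninjured at 7 dpi and 37.9-fold and 26.2-fold at 21 dpi, when it stood at 496 and 710.4 CPM without the Saa3-led cluster. Mmp10 was at 0.0428, 6.32 and 39.1 CPM and at 0, 1.81 and 38.6 CPM, so it was near or at 0 before injury. Its log2 ratio of 21 dpi over uninjured in Gli1-positive cells was 9.84 with an interval of 7.36 to 15.14, since only 1 UMI was counted in uninjured cells. In Gli1-negative cells no UMI was counted uninjured, and Mmp10 was 476-fold higher at 21 dpi against a set floor of 3 counts in that library. This value is not a lower bound, since the interval of 0 UMIs reached 0.0997 CPM, and it rests on the Saa3-led cluster, without which Mmp10 was at 3.81 CPM. Mmp11, the third of the stromelysins and one that is activated inside the cell by furin, stayed within 2-fold, at 14, 23.6 and 26.2 CPM and at 22.7, 14.4 and 22.4 CPM.

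The macrophage elastase Mmp12 was at 0, 0.949 and 7.82 CPM in Gli1-positive and at 0, 0.909 and 16.3 CPM in Gli1-negative mesenchymal cells. It was 201-fold higher at 21 dpi than in uninjured Gli1-negative cells, against the same set floor, and myeloid-like cells formed no cluster in either 21 dpi library. Without the Saa3-led cluster Mmp12 was at 0.951 CPM at 7 dpi and 0.447 CPM at 21 dpi in Gli1-positive cells, the opposite order, and at 2.61 CPM at 21 dpi in Gli1-negative cells, so that these values rest on that cluster. Of the gelatinases, which cut denatured collagen and basement membrane, Mmp2 was abundant throughout, at 483, 771 and 1284 CPM and at 392, 876 and 1331 CPM. It was 2.66-fold and 3.39-fold over uninjured at 21 dpi. Mmp9 was low in mesenchymal cells, at most 7.44 CPM, and reached 29.8 CPM in the myeloid-like cells of the uninjured Gli1-positive library.

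Mmp14, the membrane-type enzyme that activates pro-Mmp2, was at 164, 356 and 501 CPM in Gli1-positive and at 86.2, 303 and 439 CPM in Gli1-negative mesenchymal cells. It was thus past 2-fold at both times in both sorts, 3.06-fold and 5.09-fold at 21 dpi. Mmp16, another membrane-type enzyme, stayed between 19 and 34.1 CPM. Mmp25, the leukocyte membrane-type enzyme, was at 51.4 CPM in lymphoid-like and 28.8 CPM in myeloid-like cells of the uninjured Gli1-positive library and at most 3.85 CPM in mesenchymal cells. Mmp23 had its highest level at 7 dpi and not at 21 dpi, at 34.7, 177 and 135 CPM and at 45.1, 186 and 123 CPM. Mmp19 was at 22.2, 46.5 and 63.6 CPM and at 31.7, 50.9 and 64.3 CPM, past 2-fold at 21 dpi in both sorts (2.86-fold and 2.03-fold), but at 54.8 against 31.7 CPM in Gli1-negative cells without a cluster of Saa3-expressing cells, which is short of 2-fold.

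**Figure D3:**
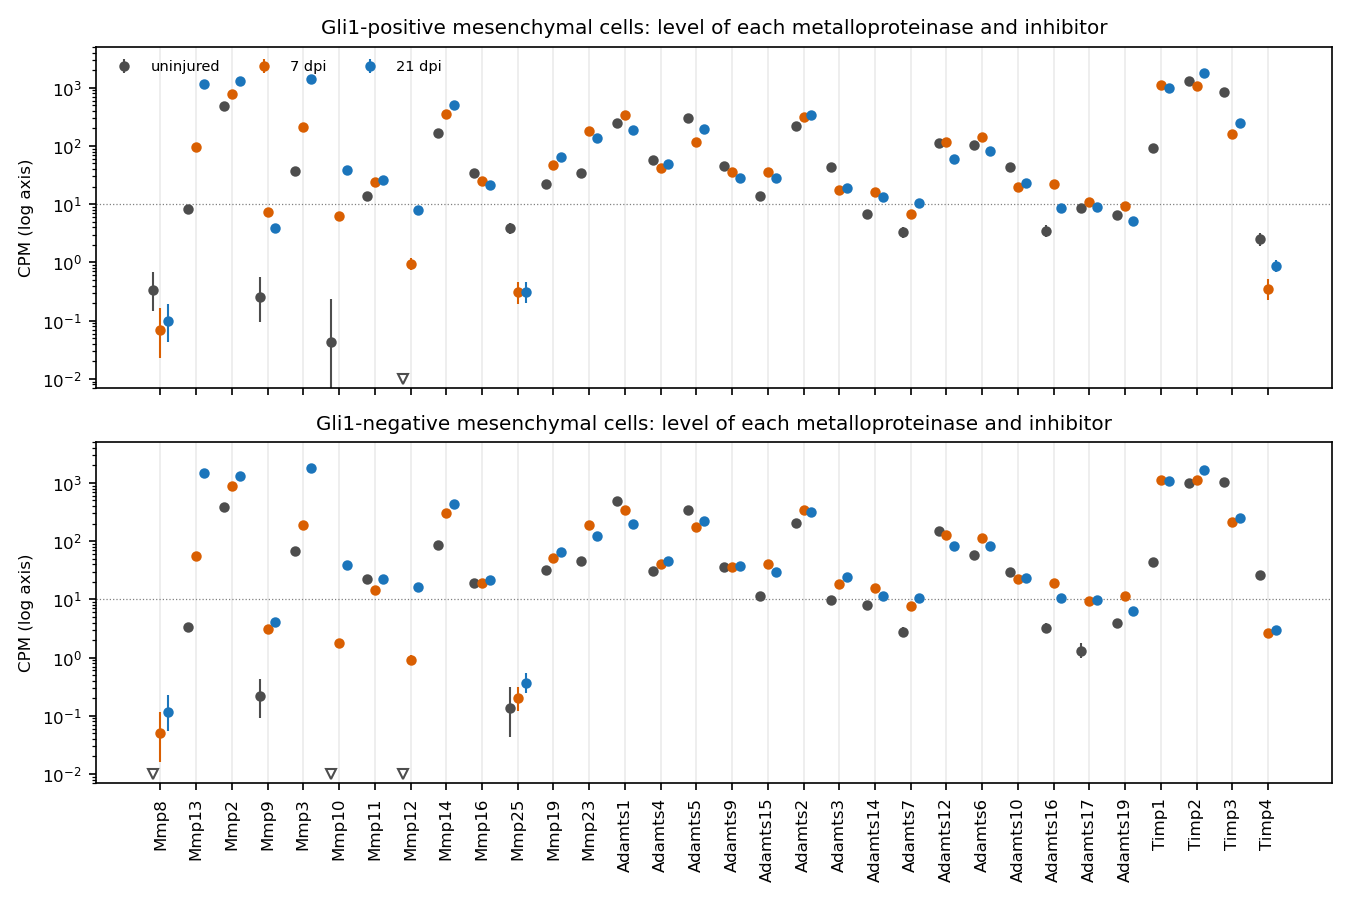
Level of each named member in mesenchymal cells of the 6 libraries (CPM, log scale), with members ordered by role, 95% intervals for counting error as bars, triangles for 0 UMIs and a dotted line at 10 CPM. Mmp13, Mmp3 and Mmp10 reach their highest level at 21 dpi in both sorts (for Mmp10 in Gli1-positive cells not without the Saa3-led cluster), and Timp3 its highest in uninjured cells.

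The inhibitors differed in direction. Timp1 was at 92.9, 1093 and 989 CPM in Gli1-positive and at 44.2, 1126 and 1069 CPM in Gli1-negative mesenchymal cells. It was 11.8-fold and 25.5-fold over uninjured at 7 dpi and 10.7-fold and 24.2-fold at 21 dpi, so most of its difference was present at 7 dpi, when Mmp13 was still at 95.9 and 56.1 CPM. Without the Saa3-led cluster it was at 602 and 695 CPM at 21 dpi, below the 1091 and 1112 CPM of 7 dpi. Timp1 is X-linked: in the mixed uninjured Gli1-positive library it was at 79.6 CPM in the 1488 mesenchymal cells with Xist only and at 130.3 CPM in the 595 with Y-linked transcripts only. In the same sort it was at 1113 CPM in the cells with Y-linked transcripts only at 7 dpi and at 968 CPM in those with Xist only at 21 dpi. With 1 library per condition, the part of sex in the difference between time points was not tested. Timp3 went the other way, at 851, 163 and 246 CPM and at 1044, 214 and 254 CPM, 5.21-fold and 4.89-fold lower at 7 dpi and 3.45-fold and 4.11-fold lower at 21 dpi. Timp2, which also takes part in the activation of pro-Mmp2 by Mmp14, had the most UMIs of the inhibitors at 21 dpi and stayed within 2-fold, at 1294, 1050.0 and 1769 CPM and at 994, 1117 and 1692 CPM. Timp4 was low in mesenchymal cells, at 2.48, 0.349 and 0.869 CPM and at 26.1, 2.59 and 3.03 CPM. Endothelial markers in the same cells summed to 112, 25.1 and 28.7 CPM and to 258, 70.9 and 67.3 CPM, and their part in the Timp4 values was not tested.

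Among the proteoglycanases, Adamts5, a main aggrecanase of mouse cartilage, had its highest level before injury, with 296, 118 and 195 CPM in Gli1-positive and 342, 172 and 218 CPM in Gli1-negative mesenchymal cells. It was past 2-fold in Gli1-positive cells at 7 dpi (2.51-fold lower) and just short of it in Gli1-negative cells (1.98-fold lower). Adamts15 was higher at both times in both sorts, at 13.6, 35.2 and 27.7 CPM and at 11.6, 40.9 and 29.3 CPM. Adamts1 was at 248, 338 and 188 CPM and at 481, 340.2 and 198 CPM, past 2-fold only in Gli1-negative cells at 21 dpi (2.44-fold lower). Adamts4 stayed within 2-fold, at 58, 41 and 49.4 CPM and at 30.9, 40.3 and 46 CPM, as did Adamts9, at 28.5 to 44.5 CPM. Aggrecan itself, the substrate after which these enzymes are named, was at 2.35, 119 and 231 CPM and at 0.568, 133 and 277 CPM.

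Of the procollagen N-proteinases, Adamts2 was at 218, 314 and 342 CPM and at 204, 348 and 317 CPM, within 2-fold in all comparisons, while Col1a1, which encodes one of its substrates, was past 2-fold higher at 7 dpi and at 21 dpi in both sorts. Adamts14 was at 6.8, 16.3 and 13.1 CPM and at 8.06, 15.5 and 11.4 CPM. Adamts3 differed between the sorts before injury, at 43.5 CPM in Gli1-positive and 9.76 CPM in Gli1-negative mesenchymal cells, and was alike afterwards, at 17.6 and 18.7 CPM against 18.1 and 23.8 CPM. It was therefore 2.33-fold lower at 21 dpi than uninjured in Gli1-positive cells and 2.44-fold higher in Gli1-negative cells. Most of the uninjured Gli1-positive UMIs (67.4%) lay in a tenocyte-like cluster of 669 cells at 113 CPM, and the tenocyte-like cluster of the uninjured Gli1-negative library, of 190 cells, stood at 103 CPM.

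Of the enzymes known to cut cartilage oligomeric matrix protein (Comp), Adamts7 was at 3.29, 6.91 and 10.3 CPM and at 2.76, 7.83 and 10.5 CPM, 3.13-fold and 3.8-fold over uninjured at 21 dpi (7.31 and 7.96 CPM at 21 dpi without the Saa3-led cluster, under the 10 CPM needed to be counted), and Adamts12 was at 112, 118 and 60.1 CPM and at 147, 129 and 82.1 CPM. Comp was at 897, 201 and 728 CPM and at 121, 180.1 and 816 CPM. Adamts16 had its highest level at 7 dpi, at 3.46, 21.9 and 8.74 CPM and at 3.22, 18.9 and 10.7 CPM, and Adamts19 likewise in Gli1-negative cells, at 3.87, 11.5 and 6.24 CPM. In Gli1-positive cells Adamts19 was at 6.54, 9.19 and 5.24 CPM. Adamts6 was at 103, 140.0 and 82.5 CPM and at 57.5, 115 and 81.5 CPM, within 2-fold throughout. Adamts10, which has a known part in fibrillin microfibrils, was at 43.5, 19.5 and 23.1 CPM and at 29.4, 22.5 and 23.7 CPM, and Adamts17 was at 8.55, 10.9 and 9.05 CPM and at 1.32, 9.41 and 9.66 CPM.

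At 21 dpi the transcripts of Mmp3, Mmp13, Mmp10, Mmp12 and Mmp9 were concentrated in few cells. In each sort 1 mesenchymal cluster had Saa3, a serum amyloid A gene, among its first leading genes together with Grem1 and Il11. This cluster, called Saa3-led here, had 907 cells in Gli1-positive (11.2% of mesenchymal cells) and 529 cells in Gli1-negative (7.05%). The members were left out of the genes used to form clusters, but Mmp3, Mmp10, Mmp12 and Mmp13 were all among the 10 leading genes of the cluster in both sorts. Its Mmp levels are thus part of what sets it apart and are given as a description. The cluster held 78.3% of the mesenchymal Mmp13 UMIs in the Gli1-positive library, at 4600.1 CPM against 309 CPM in the other mesenchymal cells, and 67.5% in the Gli1-negative library, at 7303 against 565 CPM. For Mmp3 it was 71.7% (5175 against 496 CPM) and 65.9% (8518 against 710.4 CPM), and for Mmp10 98.3% (197 against 0.818 CPM) and 91.5% (255 against 3.81 CPM). Mmp12 had 95.4% and 86.2% of its UMIs there, Mmp9 84.1% and 54.3%, and Timp1 51% and 44%. Mmp2 and Mmp14 lay mostly outside the cluster, which held 16.8% and 13.9% of the Mmp2 UMIs (1102 against 1328 CPM and 1335 against 1329.9 CPM) and 26.2% and 15.1% of the Mmp14 UMIs. Mmp14 was at 460.2 and 432 CPM outside the cluster against 501 and 439 CPM over all mesenchymal cells, so its level was higher inside the cluster. Other members were lower in these cells than in the rest, among them Mmp23 (129 against 137 CPM and 89.1 against 128 CPM), Timp3 (122 against 276 CPM and 106 against 278 CPM), Adamts15 (8.13 against 32.5 CPM and 5.7 against 33.1 CPM) and Adamts2 (223 against 371 CPM and 152 against 344 CPM).

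The Saa3-led cells were deeply sequenced. Their median was 16473 and 18872 UMIs per cell against 8293 and 8529 in the other mesenchymal cells. With doublets kept in the clustering, 5.97% and 9.35% of the barcodes in the cluster were marked as likely doublets against 7.53% and 7.41% of the others. The cluster then held 921 and 813 barcodes, and over the other clusterings its size ranged from 731 to 987 cells in the Gli1-positive and from 492 to 786 cells in the Gli1-negative library, so the share of 7.05% depends on the clustering. Their summed lymphoid list was at 105 and 122 CPM against 4.83 and 8.91 CPM, almost all of it Trdc, with Cd3e at 0, and they were assigned no cell type. Without this cluster Mmp13 was still at 309 and 565 CPM at 21 dpi, above 95.7 and 56.2 CPM at 7 dpi, and Mmp3 at 496 and 710.4 CPM above 190.1 and 184 CPM. Mmp10 in contrast was at 0.818 CPM at 21 dpi against 4.87 CPM at 7 dpi in Gli1-positive cells, the opposite order to that with the cluster, whereas in Gli1-negative cells it was at 3.81 against 1.79 CPM, the same order. All values given without the cluster are from the main clustering. The Gli1-negative cluster was smaller there than the 786 cells and 813 barcodes it reached in others, and how far these values depend on that is not given here.

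**Figure D4:**
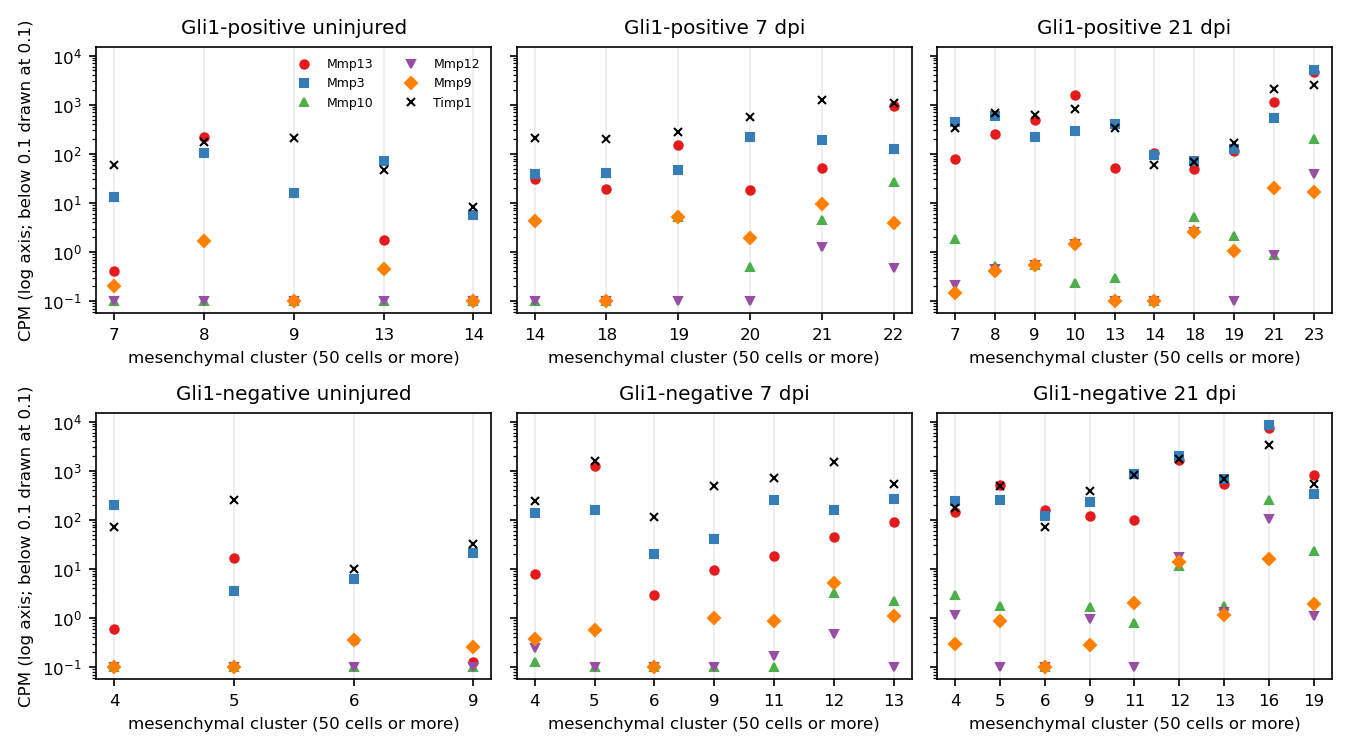
Level of selected members (CPM) in the mesenchymal clusters of 50 or more cells in each library, on a log axis with levels below 0.1 CPM drawn at 0.1. At 21 dpi the Saa3-led cluster of each sort (number 23 in Gli1-positive, 16 in Gli1-negative) stands above the others for Mmp13 (4600.1 and 7303 CPM), Mmp3 and Mmp10.

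At 7 dpi, before the Saa3-led cells were numerous, Mmp13 was highest in tenocyte-like clusters. In the Gli1-positive library the tenocyte-like cluster led by Vat1l and Syngr1 (753 cells) held 55.8% of the mesenchymal Mmp13 UMIs at 923 CPM (interval 894 to 952), and in the Gli1-negative library the tenocyte-like cluster (227 cells) held 40.6% at 1278 CPM (1226 to 1332). The clusters marked by Crabp1, with 3967 and 3005 cells, stood at 51.7 and 44.7 CPM. Mmp13 was also present in uninjured Gli1-positive tendon mainly in 64 cells of the tenocyte-like Wfdc1-led cluster that had 3804 cells at 21 dpi, at 215 CPM (179.9 to 255), with 67.9% of the UMIs. Mmp3 differed in place from Mmp13. Before injury 72.8% and 79.8% of its mesenchymal UMIs lay in the clusters led by C7 and Inmt, at 70.2 and 204 CPM, and at 7 dpi it stood between 157 and 253 CPM in the first and second clusters by cell number of each sort.

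Free RNA in the droplets limits what shares of cells can tell. With each cell thinned to 2000 UMIs, an Mmp13 UMI was found at 21 dpi in 66% of Gli1-positive Saa3-led cells, 15.7% of other mesenchymal cells and 13.5% of endothelial-like cells (unthinned 83.6%, 33.6% and 31.5%, at median depths of 16473, 8293 and 5852.5 UMIs). In the Gli1-negative library it was 93.4%, 24.8% and 22.9% (unthinned 98.1%, 53.3% and 45.6%, at median depths of 18872, 8529 and 3891 UMIs). The shares of other mesenchymal cells thus lay only a little above those of endothelial-like cells in both sorts, and no expression outside the Saa3-led cluster is read from them. By level, Mmp13 stood at 309 and 565 CPM in other mesenchymal cells against 70.7 and 134 CPM in endothelial-like cells. For Mmp3 other mesenchymal cells had a UMI in 32% and 40.6% of cells against 8.73% and 22.8% of endothelial-like cells, so that this share exceeded the background. At 7 dpi an Mmp13 UMI was found in 26.7% and 29.3% of the tenocyte-like cells that had 2000 UMIs, against 4.24% and 2.59% of endothelial-like cells.

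Several members were highest outside the mesenchymal cells. Timp3 was at 1524, 1162 and 905 CPM in Gli1-positive and at 1712, 897 and 834 CPM in Gli1-negative endothelial-like cells, and at 2535, 770.4 and 989 CPM and at 2489, 944 and 734 CPM in mural-like cells (pericytes and smooth muscle), so that it was lower after injury in all 3 classes in both sorts. Timp4 was found mainly in vessel cells, at 733, 54.8 and 138 CPM and at 1114, 173 and 150 CPM in endothelial-like cells, and was also lower there after injury. Adamts9, an anti-angiogenic proteoglycanase, was at 407, 685 and 947 CPM and at 493, 889.7 and 974 CPM in endothelial-like cells, far above its mesenchymal 28.5 to 44.5 CPM. Adamts4 was at 836, 215 and 675 CPM and at 96.2, 199 and 464 CPM in mural-like cells, and Adamts1 there at 1373, 533 and 544 CPM and at 569.9, 440.4 and 438 CPM. Timp1 in endothelial-like cells was at 3.5, 170.1 and 100.1 CPM and at 6.3, 191 and 149 CPM. It was below its mesenchymal level at each time and had the same order of time points, and how much of this was free RNA was not tested. In mural-like cells at 21 dpi some of the same Mmp genes as in the Saa3-led cells were present: Mmp10 was at 22.4 CPM in the Gli1-positive and 111 CPM in the Gli1-negative library (interval 105 to 118), the latter above its mesenchymal 38.6 CPM, and was at 0 UMIs in uninjured mural-like cells of both sorts. Mmp13 stood there at 196 and 609 CPM, and Mmp3 at 92.5 and 927 CPM. Over all time points together, Saa3 stood at 3296 CPM in the larger Gli1-negative mural-like cluster and at 1213 CPM in the matching cluster with doublets kept. It stood at 960 CPM in that of the joint clustering, which pools both sorts, and at 217 CPM in the Gli1-positive one. The part of Saa3-led cells in these mural-like Mmp values was not tested. The 399, 167 and 286 endothelial-like cells of the Gli1-positive libraries are fewer than the 3641, 1044 and 1849 of the Gli1-negative ones, and sorting can set these numbers.

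**Figure D5:**
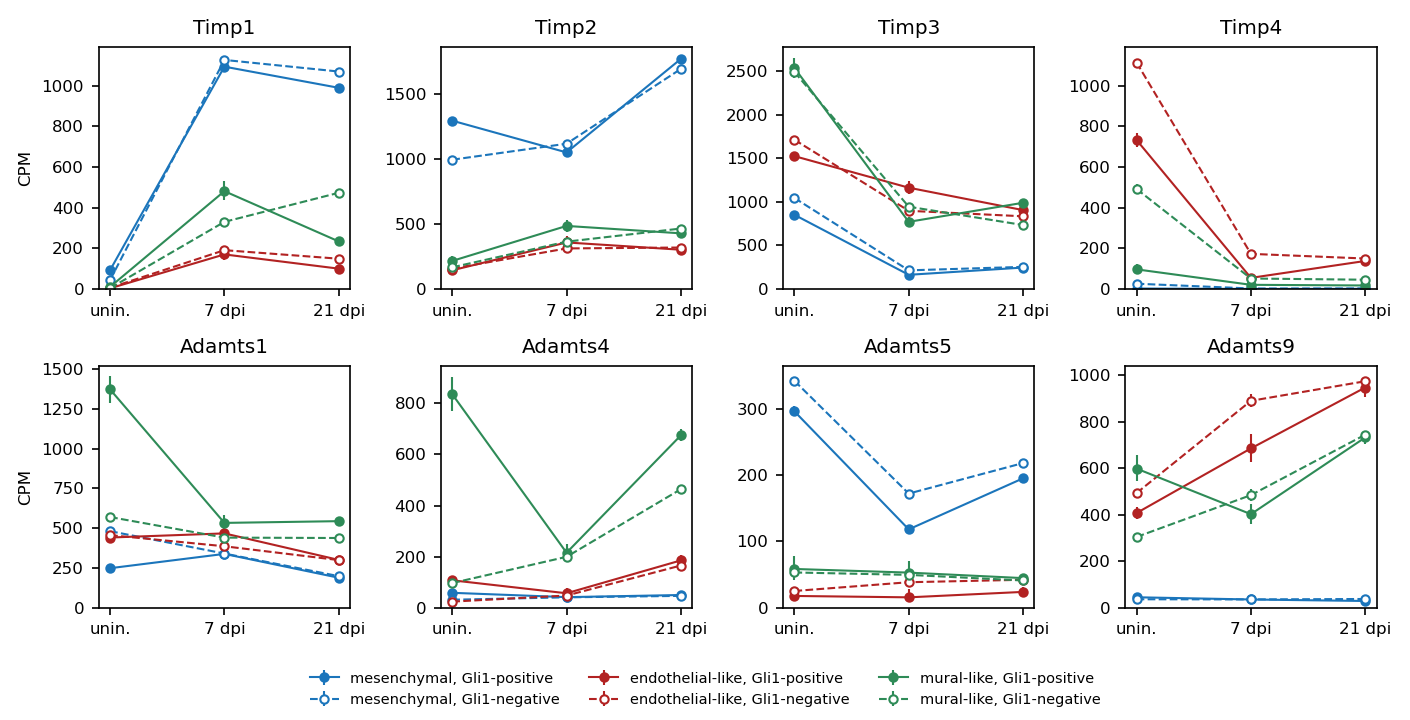
Level of selected members (CPM) by cell class in the 6 libraries, for classes of 50 or more cells, with 95% intervals for counting error as bars. Timp3, Timp4 and Adamts9 stand highest in endothelial-like or mural-like cells, and Timp3 is lower after injury in all 3 classes shown for both sorts.

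Adamts5, Adamts15 and Adamts16 were unevenly spread over the mesenchymal clusters. Adamts5 stood at 618 and 795 CPM in the uninjured tendon stem-like clusters of the Gli1-positive and Gli1-negative sorts, which held 43.6% and 49.2% of its UMIs. Adamts15 at 7 dpi was at 97.5 and 92.4 CPM in the clusters with Pgr and Gm32014 among their leading genes, with 54.7% and 68.8% of its UMIs, and as Adamts15 is itself among the 10 leading genes of both clusters this is a description of them. Adamts16 before injury was almost confined to the tendon stem-like clusters (97.5% and 87.4% of its few UMIs). At 7 dpi 90.9% and 60.7% of its UMIs lay in the clusters marked by Crabp1. These were large, with 3967 of 7003 and 3005 of 7995 mesenchymal cells. Over all time points their median depth was 12203 and 16572 UMIs, against 9268 and 11510 UMIs in mesenchymal cells at 7 dpi. Much of these shares thus goes with cluster size and depth, and no enrichment is read from them.

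Over all kept cells, where the mix of cell classes also differs and fewer cells of a type cannot be told apart from less RNA per cell, the 32 members at 10 CPM or more had the following levels, given in the order uninjured, 7 dpi and 21 dpi, first for Gli1-positive and then for Gli1-negative libraries. Mmp13, Mmp3, Mmp2, Mmp14 and Mmp19 were highest at 21 dpi over the libraries as in mesenchymal cells. Mmp13 was at 3.57, 79.3 and 957 CPM and at 2.43, 53.8 and 1235 CPM. Mmp3 was at 14.1, 171 and 1171 CPM and at 49.3, 179 and 1492 CPM. Mmp2 was at 183, 634 and 1066 CPM and at 279, 819.6 and 1064 CPM. Mmp14 and Mmp19 were likewise higher at each later time. Mmp14 was at 68.3, 295 and 431 CPM and at 65.2, 289 and 382 CPM, and Mmp19 at 12.3, 37.9 and 53.9 CPM and at 22.7, 47.6 and 55.4 CPM. Mmp10 was at 0.891, 5.31 and 33.2 CPM and at 0, 1.67 and 40.5 CPM, and Mmp12 at 1.02, 0.782 and 6.49 CPM and at 0, 0.843 and 13.8 CPM. Before injury both had UMIs in the Gli1-positive library alone, where for Mmp12 the myeloid-like cells stood at 14.8 CPM. Mmp9 was at 12.8, 6.68 and 4.26 CPM and at 0.411, 3.19 and 4.09 CPM, and Mmp25 at 26.5, 0.275 and 0.265 CPM and at 0.299, 0.213 and 0.387 CPM. Mmp9, Mmp25 and Mmp8 were thus highest in the uninjured Gli1-positive library, which held most of the immune cells, Mmp8 at 10.7, 0.0661 and 0.0814 CPM and at 0.224, 0.102 and 0.244 CPM. Mmp11 was at 5.86, 19.7 and 24.4 CPM and at 18.1, 14.7 and 22.8 CPM, Mmp16 at 13.2, 20.4 and 18.3 CPM and at 18.4, 18.8 and 18.1 CPM, and Mmp23 at 13.7, 145 and 115 CPM and at 32.5, 175 and 105 CPM.

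The inhibitors and Adamts genes of vessel cells also differed between library and mesenchymal levels. Timp1 was at 36, 891 and 829 CPM and at 32.5, 1054 and 891 CPM, and Timp2 at 581, 864 and 1484 CPM and at 747, 1055 and 1397 CPM. Timp3 was at 417, 155 and 275 CPM and at 1278, 265 and 364 CPM, and Timp4 at 28.6, 0.991 and 4.22 CPM and at 286, 10.8 and 23.2 CPM. Timp3 and Timp4 thus stood higher in the Gli1-negative library at each time, which also held more endothelial-like cells. Adamts9 was at 42.3, 40.1 and 79.3 CPM and at 152, 82.5 and 207 CPM, Adamts4 at 36.2, 35.7 and 73.9 CPM and at 33.3, 44.7 and 97.9 CPM, and Adamts1 at 138, 302 and 200.1 CPM and at 476, 344 and 229.9 CPM. Adamts5 was at 113, 96.2 and 164 CPM and at 249, 163 and 179 CPM, and Adamts15 at 6.52, 29.1 and 24.4 CPM and at 10.3, 38.6 and 26.2 CPM. Over the Gli1-positive libraries Adamts5 was lower at 7 dpi than uninjured as in the mesenchymal cells, but not at 21 dpi. Adamts2 was at 83.2, 257 and 298 CPM and at 146, 329.8 and 288 CPM, Adamts3 at 17.2, 14.7 and 16.1 CPM and at 7.39, 17 and 19.4 CPM, and Adamts14 at 5.96, 15.9 and 11.8 CPM and at 6.72, 14.8 and 10.9 CPM. Adamts7 was at 1.59, 5.84 and 9.22 CPM and at 3.42, 8.21 and 12.6 CPM, and Adamts12 at 50.2, 98 and 68.3 CPM and at 123, 128 and 104 CPM. The N-proteinases Adamts2 and Adamts14 were thus higher after injury over all cells in both sorts. Adamts6 was at 68.1, 115 and 70.5 CPM and at 45.7, 109 and 73.9 CPM, Adamts10 at 27.5, 16.3 and 20.4 CPM and at 27.1, 22.3 and 22.7 CPM, and Adamts16 at 1.53, 17.8 and 7.26 CPM and at 2.28, 17.6 and 8.53 CPM. Adamts17 was at 5.91, 10.4 and 8.72 CPM and at 1.4, 9.72 and 9.68 CPM, and Adamts19 at 2.58, 7.55 and 4.43 CPM and at 2.69, 10.8 and 4.85 CPM. Adamts19 was highest at 7 dpi in both sorts and Adamts17 in the Gli1-positive sort, while in the Gli1-negative sort Adamts17 did not differ between 7 and 21 dpi beyond counting error.

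Of the 14 members under 10 CPM in all libraries, 6 reached that level in a class of at least 50 cells. Mmp15, a membrane-type enzyme, was at 42.7, 16.9 and 22.2 CPM in endothelial-like cells of the Gli1-positive sort and at 111 CPM in uninjured Schwann-like cells of the Gli1-negative sort. Mmp28 was at 10.1 CPM in uninjured Gli1-positive mesenchymal cells and at 20.6 CPM in uninjured Gli1-negative endothelial-like cells. Adamts20 was at 123 CPM in uninjured Schwann-like cells. Adamts8 was at 28.7 CPM in mural-like cells of the Gli1-positive sort at 7 dpi. Adamts18 was at 12 CPM in endothelial-like cells of the Gli1-negative sort at 7 dpi, and Mmp17 at 18.9 CPM in uninjured Schwann-like cells. The other 8 (Mmp1a, Mmp1b, Mmp7, Mmp20, Mmp21, Mmp24, Mmp27 and Adamts13) were at 0 to 2.74 CPM in every library.

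The sorts differed in few members. In uninjured mesenchymal cells 4 of 22 members were past 2-fold between Gli1-positive and Gli1-negative cells, against 10.6% of all genes (6.88% higher, 3.77% lower): Adamts3 (4.46-fold), Mmp28 (5.31-fold) and Timp1 (2.1-fold) were higher in Gli1-positive cells, and Timp4 was 10.5-fold lower. Endothelial markers summed to 112 CPM in these Gli1-positive and 258 CPM in these Gli1-negative cells, and the part of vessel RNA in the Timp4 difference was not tested. With TMM scaling the split was 2 higher and 3 lower (11% of all genes past 2-fold), and with only the 595 Gli1-positive cells that carry Y-linked transcripts without Xist, to match the uninjured Gli1-negative library, it was 5 higher and 3 lower (11.8% of all genes). At 7 dpi 0 of 25 members were past 2-fold (background 1.54%, with 1.08% higher and 0.452% lower), with Mmp13 at 95.9 against 56.1 CPM (1.71-fold). At 21 dpi 1 of 26 was (background 0.433%, with 0.21% higher and 0.222% lower), namely Mmp12, which was 2.09-fold lower in Gli1-positive cells. Without the Saa3-led cluster Mmp12 was under 10 CPM in both sorts and 0 members were past 2-fold (0.481% of all genes). Mmp13 and Mmp3 at 21 dpi were 1.31-fold and 1.27-fold lower in Gli1-positive than in Gli1-negative cells, with log2 intervals of −0.40 to −0.37 and −0.36 to −0.33.

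Genes that act on these enzymes or beside them differed in both directions. Of the 9 activation genes tested out of 10 listed (proprotein convertases, the plasminogen system and Bsg), 2 were past 2-fold higher and 3 lower at 7 dpi in each sort, and at 21 dpi 1 was higher and 2 lower in Gli1-positive and 4 higher (Furin, Pcsk5, Plaur and Bsg) and 2 lower in Gli1-negative cells. Beside these counts, at 7 dpi 10.7% of all genes were higher and 16.3% lower in Gli1-positive and 10.8% higher and 12.4% lower in Gli1-negative cells, and at 21 dpi 5.7% were higher and 12.9% lower in Gli1-positive and 8.99% higher and 12.3% lower in Gli1-negative cells. Pcsk5, a furin-like convertase, was at 208, 519 and 270.2 CPM and at 171, 521 and 346 CPM, and Bsg, an inducer of Mmp synthesis, at 278, 664 and 579 CPM and at 274, 651 and 566 CPM. Pcsk6, another convertase, was at 168, 23 and 31.9 CPM and at 338, 48.2 and 42.9 CPM, and Plau, the urokinase that generates plasmin, at 64.1, 32.1 and 21.5 CPM and at 146, 43.2 and 24.8 CPM. The membrane-anchored Mmp inhibitor Reck was lower after injury like Timp3, at 69.8, 18 and 32.6 CPM and at 49.9, 18.5 and 24.9 CPM, and the clearance receptor Lrp1 was at 634, 297 and 435 CPM and at 741, 370.0 and 454 CPM. A further list of 13 held astacin and Adam family genes and the procollagen-processing enhancers Pcolce and Pcolce2, and 11 were tested. At 7 dpi 1 was higher and 2 lower in Gli1-positive and 2 higher and 2 lower in Gli1-negative cells. At 21 dpi 1 was higher and 1 lower in Gli1-positive and 1 higher and 2 lower in Gli1-negative cells. Pcolce2 was among the lower genes in each of these counts, and was the only lower gene in Gli1-positive cells at 21 dpi. Adam12 was at 21.4, 305 and 109 CPM and at 15.2, 286 and 125 CPM, and Pcolce2, an enhancer of procollagen processing, at 467, 42 and 97.2 CPM and at 355, 63.8 and 97.4 CPM. Of 5 Adamts-like genes tested out of 7, 0 were higher and 2 lower in each sort at 7 dpi, and at 21 dpi 0 were higher, with 1 lower in Gli1-positive and 3 in Gli1-negative cells. Ctsk, a cysteine collagenase, was at 164, 331 and 858 CPM and at 128, 303 and 717 CPM, with the same order of time points as Mmp13.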

How the data were processed

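Libraries were made with the Chromium Single Cell 3′ v3 kit. The authors deposited raw UMI counts per gene and cell barcode, 8236 to 16437 barcodes per library, without cell type labels, so cell classes were rebuilt here and may differ from the study's. The submitters' processing notes name Cell Ranger 3.1.0, STAR and mm10, whereas the matrix header names cellranger 9.0.0, and 1735 of 33696 gene IDs are not in GENCODE M21. All 46 members are, but the annotation used is uncertain.

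Cells were kept by the study's stated limits: at least 200 genes and 1000 UMIs, log10 genes per log10 UMI of at least 0.7, and at most 5% mitochondrial and 5% hemoglobin UMIs. The cells of highest Scrublet score were removed as likely doublets, at 0.8% per 1000 cells, where the study used DoubletFinder. Each sort was clustered alone with 2000 variable genes, 30 principal components, 20 neighbors and Leiden resolution 0.5 (scanpy 1.11.5, leidenalg 0.10.2). Clusters were named from marker lists, by thresholds set after the data were seen: mesenchymal clusters had a mesenchymal type's markers in the lead or, where no list led (or the adipocyte list did), Pdgfra at 100 CPM or more. UMIs were summed and divided by the total UMIs. Ratios used members at 10 CPM or more in either group, with binomial intervals, and Poisson intervals for CPM (scipy 1.17.1), all at 95%. Against 0 UMIs a floor of 3 counts was used. TMM factors came from edgeR 4.0.16. Only the ratio step and its interval were tested on simulated counts. Members at 10 CPM or more in a library were named, others where they reached it in a class of 50 cells. Genes of the chromosome 9 run are related in sequence, and how reads shared between them were counted was not given in the sources used here. The members and lists were chosen with earlier results of these data known. The promoter windows are RefSeq's, GRCm38.p6, and 46 of 46 members matched its gene table.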

Additional observations from a re-analysis of the deposited data

Results flagged for a closer look

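Adamts3, a procollagen N-proteinase, had log2 ratios of opposite sign in the sorts between 21 dpi and uninjured mesenchymal cells, −1.22 in Gli1-positive and 1.28 in Gli1-negative cells. It was singled out because the single library of each condition moved one way in one sort and the other way in the other. With 1 library per condition the difference was not tested. Before injury a tenocyte-like cluster of 669 cells held 67.4% of the mesenchymal Adamts3 UMIs in the Gli1-positive library and one of 190 cells held 32.1% in the Gli1-negative library, among 2464 and 5770 mesenchymal cells, and the part of this in the difference was not tested.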

How the results depend on the processing

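Leaving out a replicate was not possible, since each condition is 1 library. No paired analysis was possible because each time point and sort is 1 library with no replicate number. A layout of sort plus time would take the difference between sorts as its error and was not run. The 9 counts of members past 2-fold stayed within 1.5 times under TMM scaling, equal weighting of cells, Leiden resolution 1.0, 20 principal components, joint clustering, no doublet removal and leaving out the Col2a1-led cluster. Leaving out the Saa3-led or the Col2a1-led cluster and matching cells by sex-linked transcripts were chosen after the data were seen. For brevity P and N are Gli1-positive and Gli1-negative. Each count is given out of the members tested and is followed by the share of all genes past the same threshold. With a 1.5-fold threshold the counts were 21 of 25 (43.6%, P, 21 dpi over uninjured), 11 of 26 (19.4%, P, 21 over 7 dpi), 18 of 25 (45.3%, N, 7 dpi over uninjured), 12 of 27 (16%, N, 21 over 7 dpi), 11 of 22 (23%, P over N, uninjured) and 2 of 25 (3.58%, P over N, 7 dpi). Without a filter on low values they were 29 of 46 (44.2%, P, 7 dpi over uninjured), 25 of 46 (42%, P, 21 dpi over uninjured), 13 of 46 (28.1%, P, 21 over 7 dpi), 21 of 46 (39.5%, N, 7 dpi over uninjured), 11 of 45 (24.7%, N, 21 over 7 dpi), 11 of 43 (29%, P over N, uninjured), 5 of 46 (19.4%, P over N, 7 dpi) and 6 of 45 (16.8%, P over N, 21 dpi). Unfiltered, the members past 2-fold between 21 and 7 dpi were thus near the share of all genes in both sorts. Over all kept cells, where the classes' shares differ, they were 9 of 28 (6.66%, N, 21 over 7 dpi), 13 of 24 (25.2%, P over N, uninjured), 2 of 26 (5.21%, P over N, 7 dpi) and 3 of 26 (3.37%, P over N, 21 dpi). At 5 CPM or more it was 2 of 29 (2.23%, P over N, 7 dpi). Without the Saa3-led cluster it was 2 of 25 (5.93%, N, 21 over 7 dpi) and 0 of 24 (0.481%, P over N, 21 dpi), where Mmp10 and Mmp12 no longer reached 10 CPM, and in P the split for 21 over 7 dpi was 2 higher and 2 lower. With cells matched by sex-linked transcripts it was 8 of 23 (11.8%, P over N, uninjured), 14 of 25 (27.3%, P, 7 dpi over uninjured) and 11 of 24 (18.3%, P, 21 dpi over uninjured). The log2 ratio of Mmp10, Gli1-positive mesenchymal cells, 21 dpi over 7 dpi, reversed from 2.63 to −2.57 without the Saa3-led cluster, and no other ratio past 2-fold reversed under the alternatives run among members at 10 CPM or more in either group. Below that level, Mmp12 in the same comparison went from 7.82 against 0.949 CPM to 0.447 against 0.951 CPM.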
